A study of Mus musculus with 3 samples.

Results

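The genes described here make cholesterol and fatty acids in mouse embryonic stem cell progeny. They were listed by name, 28 in all, as enzymes of the sterol branch (18 genes), enzymes of the fatty acid branch (6 genes) and regulators with a sterol carrier (4 genes). Each was read through its brightest probe set that is annotated to that gene alone. Of the 28, 27 had such a probe set and all 27 were measured, out of 13974 measured genes; Acat2, which encodes the cytosolic thiolase that starts the mevalonate arm, was not analysed here. A gene counts as measured where its probe set reached 25.6 intensity units on at least 1 array; this floor is the 40th percentile of the whole data set.

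RNA was profiled on 3 Affymetrix arrays, 1 per group. The groups were Flk1+ cells of a doxycycline-treated culture (Snail-induced Flk1+), Flk1- cells of the same kind of culture (Snail-induced Flk1-), and Flk1- cells of a culture without doxycycline (untreated Flk1-). All came from A2.snail, 1 embryonic stem cell line in which doxycycline switches on Snail, a repressor of epithelial genes, so the untreated cells carry the inducible gene too. All were grown as embryoid bodies, floating aggregates that start to form germ layers, in medium with 10% serum and DKK1, a secreted Wnt inhibitor, and were sorted at day 3; doxycycline was given at 250 ng/mL on day 2. Flk1, encoded by Kdr, is a VEGF receptor of mesoderm that can form vessels and blood.

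Cholesterol is built from acetyl-CoA, first along the mevalonate arm to the isoprenoid farnesyl diphosphate and then from squalene through lanosterol to cholesterol. Fatty acids start from the same acetyl-CoA, which is carboxylated, extended to palmitate, elongated and desaturated. The membrane-bound SREBP transcription factors switch on both branches, SREBP2 (Srebf2) mainly the sterol genes and SREBP1 (Srebf1) mainly the fatty acid genes. Insig proteins hold the SREBPs in the endoplasmic reticulum when sterols are plentiful.

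With 1 array per group nothing here was replicated, so p-values are not given; the precision is limited by how few arrays there are. Values are compared as log2 differences of (intensity + 9.53), where the offset is the 20th percentile of the data, and are described by a size of 2-fold, with 1.5-fold beside it. As a yardstick within the arrays, the difference read by the brightest and by the second probe set of a gene lay a median of 0.19, 0.23 and 0.25 log2 units apart over 6492 genes. The 3 values belong, in that order, to the induction comparison (Snail-induced Flk1- minus untreated Flk1-), the sort comparison (Flk1+ minus Flk1- of the induced cultures) and the joint comparison (Flk1+ minus untreated Flk1-). Both probe sets read the same RNA, so this does not stand in for the spread between cultures.

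The Kdr probe set read 404 in Snail-induced Flk1+ cells, 9.73 in Snail-induced Flk1- cells and 10.5 in untreated Flk1- cells, which fits the sort labels. The Snai1 probe set read 19.8, 13.1 and 29.1 in the same order, near or under the floor throughout, so it checks nothing about induction. Of 8 pluripotency markers, 8 were above the floor on every array, and their intensities summed to 17217, 33410.0 and 30763. The 8 epithelial markers summed to 1905, 6637 and 16545, and the 8 mesenchymal markers to 13380.3, 7936 and 4231. Vim alone made up 9821, 5233 and 3354 of the mesenchymal sums. In Flk1+ against Snail-induced Flk1- cells, 6 mesenchymal markers were higher, and Cdh11 and Pdgfra were lower. The 8 endothelial and hemangioblast markers, with Kdr itself among them, summed to 7655, 938 and 577. Visceral endoderm markers, 5, 5 and 4 of 8 above the floor, summed to 1860, 1204 and 882, of which Sox17 made up 1466, 96.2 and 68.3. Cubn read 44.0, 257 and 220, and Rhox5 156, 602 and 428, and Afp, Ttr and Apoa1 were under the floor on every array. Feeder fibroblast markers, 4, 4 and 5 of 8 above it, summed to 481, 773 and 458, with Col1a1, Postn and S100a4 under it throughout. Markers of several cell types thus differed between the same arrays on which the lipid genes were read. Their part in the results was not tested. In bulk RNA fewer cells of a type and less RNA per cell cannot be told apart.

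Promoter sequence is shown for 3 sterol genes that the results turn on: Idi1 and Lss, which were lowest in Flk1+ cells, and Hmgcs1, which was not. RefSeq (GRCm38.p6) gave promoter windows for 22 of the 28 genes, 27 windows in all, each from 250 bases before to 50 after a start site. The lines give the 250 bases before the start site, 5′ to 3′ on the plus strand, which is the strand of all 3 genes. They lie at chr13:8885356-8885605 (Idi1), chr10:76531355-76531604 (Lss) and chr13:119690101-119690350 (Hmgcs1). Capitals mark the sterol response element TCACNCCAC, the NF-Y box CCAAT and the Snail-type E-box CAGGTG, each read on either strand.
Idi1: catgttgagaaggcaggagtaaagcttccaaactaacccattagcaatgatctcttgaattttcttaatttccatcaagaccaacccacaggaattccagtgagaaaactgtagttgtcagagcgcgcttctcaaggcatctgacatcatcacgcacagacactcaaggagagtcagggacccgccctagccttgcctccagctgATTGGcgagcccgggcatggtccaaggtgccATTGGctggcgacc
Lss: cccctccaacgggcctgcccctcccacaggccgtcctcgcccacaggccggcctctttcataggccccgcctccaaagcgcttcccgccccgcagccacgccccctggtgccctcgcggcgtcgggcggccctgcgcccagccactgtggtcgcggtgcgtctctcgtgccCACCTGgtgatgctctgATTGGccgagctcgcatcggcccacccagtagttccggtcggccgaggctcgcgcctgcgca
Hmgcs1: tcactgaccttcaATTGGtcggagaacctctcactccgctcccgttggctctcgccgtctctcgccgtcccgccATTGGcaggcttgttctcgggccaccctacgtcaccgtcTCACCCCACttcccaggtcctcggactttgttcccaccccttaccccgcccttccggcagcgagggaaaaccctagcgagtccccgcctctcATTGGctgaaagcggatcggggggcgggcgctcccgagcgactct

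These letters differ between the genes. The sterol response element was found in 1 of the 27 windows, that of Hmgcs1, starting at base -137, against 1.24% of all 32851 windows. CCAAT on either strand was found in 20 of the 27 windows, in 19 of the 22 genes, against 37.4% of all windows, and the GC box GGGCGG in 19 of 27 against 35.7%; in Idi1 the CCAAT boxes start at -45 and -14 and in Lss at -62. CAGGTG was found in 7 of 27 windows against 20.2% of all windows, in Lss (at -79), Msmo1, Pmvk, Srebf1 and Srebf2. A match of letters is a description and not a binding site, and no match says only that these letters are not in the window.

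All 27 genes stood well over the floor on every array. The lowest value was 166 intensity units, for Hsd17b7 in untreated Flk1- cells. The plot of levels gives every gene on the 3 arrays.

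**Figure D1:**
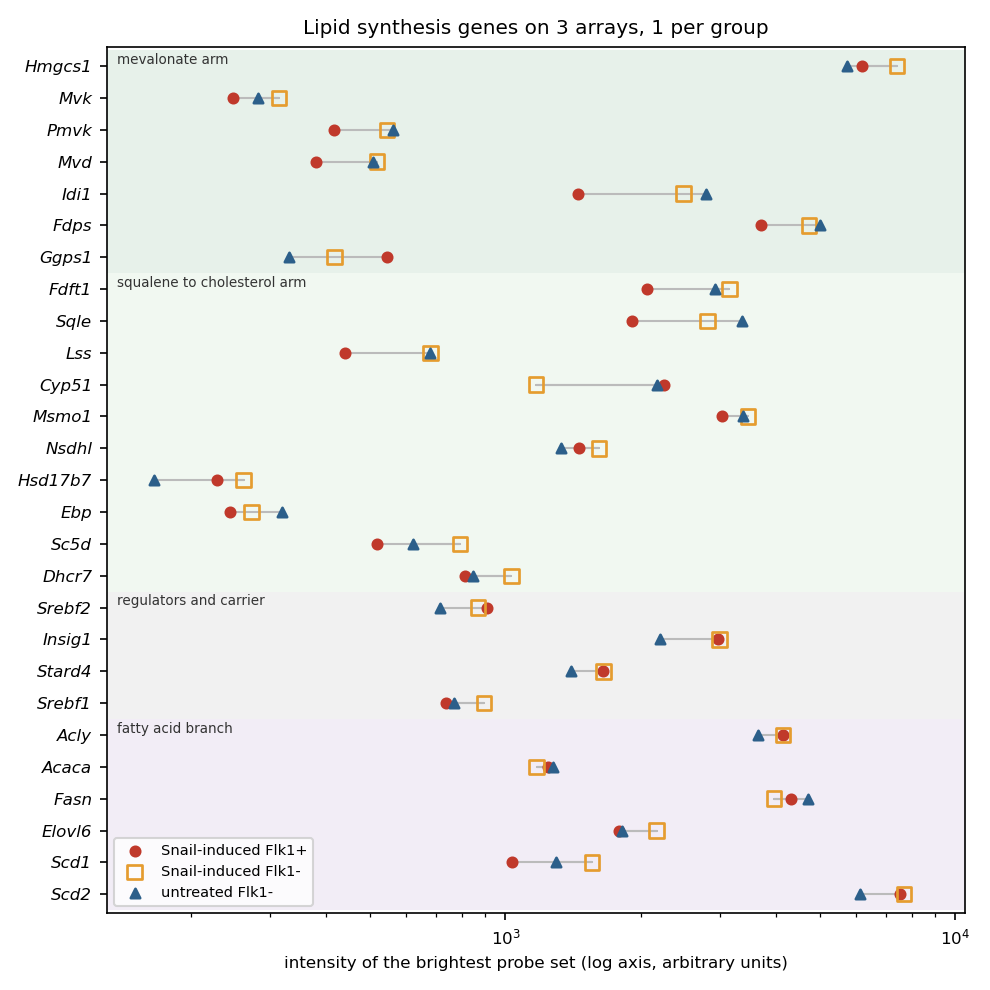
Intensity of the brightest probe set (log axis, arbitrary units) of the 27 measured genes on the Snail-induced Flk1+ (red circles), Snail-induced Flk1- (open orange squares) and untreated Flk1- (blue triangles) arrays, 1 array each, with shaded bands for the 4 gene groups. Idi1, Sqle, Fdft1 and Lss have the red circle clearly to the left, Cyp51 has the orange square far to the left, and the fatty acid genes other than Scd1 sit close together; levels of different genes cannot be compared, since probe sets differ in brightness.

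In the mevalonate arm, most genes were lowest in Flk1+ cells. Hmgcs1, the HMG-CoA synthase of the cytosol, read 6193 in Snail-induced Flk1+, 7414 in Snail-induced Flk1- and 5746 in untreated Flk1- cells. Idi1, the isomerase that makes the allylic isoprenoid unit, read 1451, 2487 and 2795, and Fdps, which joins these units to farnesyl diphosphate, read 3690.2, 4728 and 4989. Both were lowest in Flk1+ cells and highest in untreated cells.

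The kinases and the decarboxylase in between were also lowest in Flk1+ cells. Mvk, mevalonate kinase, read 248, 314 and 282 in Snail-induced Flk1+, Snail-induced Flk1- and untreated Flk1- cells. Pmvk, phosphomevalonate kinase, read 416, 545 and 562, and Mvd, mevalonate diphosphate decarboxylase, read 379.8, 518 and 507. Ggps1, which extends farnesyl diphosphate to the substrate of protein geranylgeranylation and so leaves the sterol route, ran the other way. It read 546 in Flk1+ cells, 417 in Snail-induced Flk1- cells and 330.5 in untreated cells.

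The first enzymes of the squalene to cholesterol arm shared the low Flk1+ value. Fdft1, squalene synthase, read 2067 in Snail-induced Flk1+, 3146 in Snail-induced Flk1- and 2925 in untreated Flk1- cells. Sqle, the squalene epoxidase that is a rate-limiting step of the arm, read 1907, 2814 and 3355. Lss, lanosterol synthase, read 440.2, 681 and 679. For Lss the Flk1- arrays were nearly equal and only the Flk1+ array was lower.

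Enzymes after lanosterol were more mixed. Cyp51, which removes the 14-methyl group of lanosterol, read 2250.4 in Snail-induced Flk1+, 1169 in Snail-induced Flk1- and 2174 in untreated Flk1- cells, so its low array was the Snail-induced Flk1- one. The sterol C4 demethylation genes differed from one another. Msmo1 read 3021, 3464 and 3366, Nsdhl read 1459, 1612 and 1332, and Hsd17b7 read 229, 262 and 166. Untreated cells were thus lowest for Nsdhl and Hsd17b7 but not for Msmo1.

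The last steps were lowest in Flk1+ cells, by differing amounts. Ebp, the sterol isomerase, read 244, 273 and 318 in Snail-induced Flk1+, Snail-induced Flk1- and untreated Flk1- cells. Sc5d, the C5 desaturase, read 519, 791 and 624. Dhcr7, which completes cholesterol from its last precursor, read 815, 1031 and 845. Sc5d and Dhcr7 were highest in Snail-induced Flk1- cells and Ebp in untreated cells.

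Of the regulators, Srebf2 read 909.75 in Snail-induced Flk1+, 869 in Snail-induced Flk1- and 715 in untreated Flk1- cells, and Srebf1 read 736, 897 and 769.7. Insig1, both a target and a brake of the SREBPs, read 2964, 2989 and 2209. Stard4, a carrier of cholesterol through the cytosol, read 1647, 1649.9 and 1397. For Insig1 and Stard4 the 2 Snail-induced arrays were close and the untreated array was lower.

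In the fatty acid branch, Acly, which splits citrate into cytosolic acetyl-CoA, read 4131, 4133 and 3648 in Snail-induced Flk1+, Snail-induced Flk1- and untreated Flk1- cells. Acaca, the acetyl-CoA carboxylase, read 1244, 1173 and 1276, and Fasn, fatty acid synthase, read 4315, 3947 and 4694. These core enzymes differed little among the arrays. Elovl6, which elongates palmitate, read 1791, 2168 and 1819. Scd1 and Scd2, desaturases that make monounsaturated fatty acids, read 1034, 1556 and 1292, and 7525, 7698 and 6142. Scd1 was the fatty acid enzyme with the lowest Flk1+ array relative to the others.

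The comparison of Snail-induced with untreated cells asks what differed with induction among cells that stayed Flk1-; doxycycline and Snail cannot be told apart here. On the brightest probe sets the sterol enzymes had the same median as all genes, and no gene of either branch reached 2-fold. Most of the other probe sets of the sterol enzymes were slightly higher, but the same count was not made over all genes. Of the 27 genes, 0 reached 2-fold upward and 0 downward, where 3.00% and 2.06% of all measured genes did. At 1.5-fold, Hsd17b7 was higher (1.55-fold) and Cyp51 lower (1.85-fold), 1 gene each way, against 8.57% of all genes higher and 7.84% lower. Neither call held on every probe set: Hsd17b7 ranged from -0.19 to 0.73 over 4 probe sets, and the other 2 probe sets of Cyp51 were higher, by 0.29 and 0.68.

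The sterol enzymes had a median log2 difference of 0.04 over 17 genes, equal to the median of 0.04 over all measured genes, with 11 higher and 6 lower. Centring each array on its own median moved both medians alike, to -0.06. With the mean of all probe sets, those under the floor included, the sterol median was 0.16, with 13 of 17 higher. That median was the value of Fdps, which stood at -0.08 on its brightest probe set and 0.41 on one under the floor. With the second probe set above the floor the sterol median was 0.13, with 12 of 17 higher. Of the 38 sterol probe sets above the floor 30 were higher (median 0.16), and of the 21 beyond the brightest 19 were higher (median 0.24). Neither count was made over the probe sets of all genes. The fatty acid enzymes had a median of 0.22, with Scd2, Scd1, Elovl6 and Acly higher by 0.33, 0.27, 0.25 and 0.18 and with Acaca at -0.12 and Fasn at -0.25. The median was 0.10, with 3 of 6 higher, on the second probe set. Regulators and carrier were all 4 higher on the brightest probe set (3 of 4 on the second), Insig1 by 0.44, Srebf2 by 0.28, Stard4 by 0.24 and Srebf1 by 0.22, a median of 0.26. For genes at least as bright as the dimmest of the 27, 7388 genes, the median was 0.08 and 63.1% were higher, so a slightly higher value was common among bright genes. Scaling matters for such small values: of all 2-fold calls 59.3% were higher as deposited and 44.0% after centring each array, and of all 1.5-fold calls 52.2% and 38.2%.

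For the 5 genes with CAGGTG in a promoter window, the log2 differences were -0.04 for Pmvk, 0.00 for Lss, 0.04 for Msmo1, 0.22 for Srebf1 and 0.28 for Srebf2. The median over all 27 genes was 0.18. In the same comparison the epithelial markers had a median of -1.77, with 7 of 8 at least 2-fold lower, against 2.06% of all measured genes. Whether the promoters of these markers hold CAGGTG was not read out. A link between these letters and the differences was not tested.

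**Figure D2:**
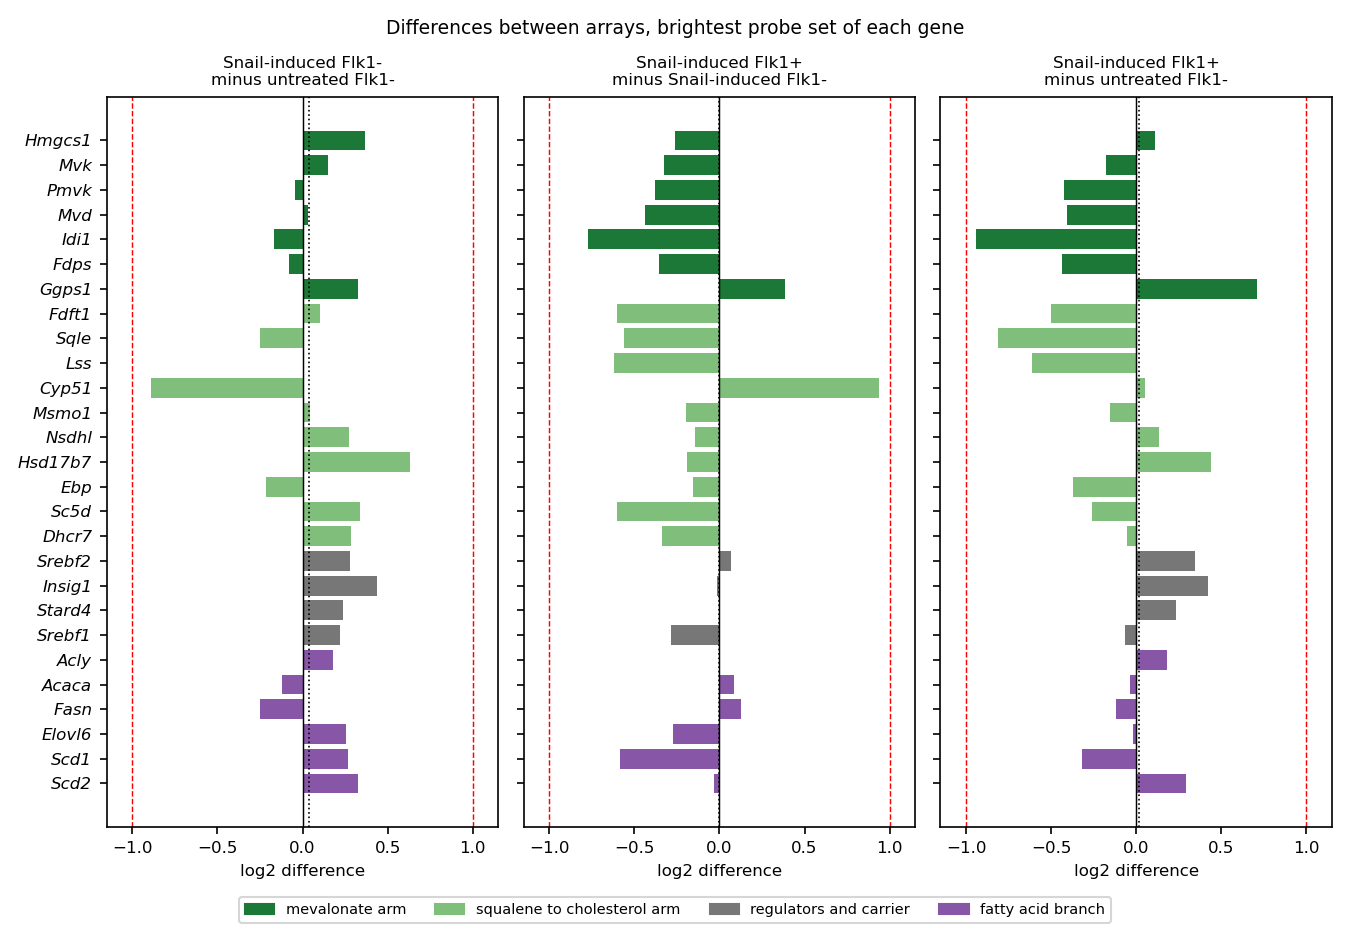
Log2 differences of the brightest probe set of each of the 27 genes in the 3 comparisons, coloured by gene group; dotted lines give the median of all measured genes (0.04, 0.00 and 0.01) and dashed red lines 2-fold in either direction. No bar reaches the 2-fold lines in any panel, and in the middle panel 15 of 17 sterol enzymes point to the left and Cyp51 and Ggps1 to the right.

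The comparison of Flk1+ with Flk1- cells of Snail-induced cultures asks how the sorted mesoderm differed from the cells around it. Sterol enzymes were modestly lower in Flk1+ cells along most of the pathway. Most fatty acid enzymes were within the yardstick on their brightest probe sets, while 7 of their 8 other probe sets were lower, a count not made over all genes. Idi1 was 1.71-fold lower, Lss 1.54-fold, Fdft1 1.52-fold, Sc5d 1.52-fold and in the fatty acid branch Scd1 stood at a log2 difference of -0.59. These were the 5 genes at least 1.5-fold lower, against 11.7% of all measured genes; Cyp51 was 1.92-fold higher, the only one at least 1.5-fold higher, against 12.6%. At 2-fold there were 0 higher and 0 lower, against 4.94% each way.

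Of 17 sterol enzymes, 15 were lower, with a median log2 difference of -0.34 where that of all genes was 0.00 and 49.9% of genes were lower. Among the 7388 genes at least as bright as the dimmest of the 27, the median was -0.02 and 52.8% were lower. The difference was past the yardstick of 0.23 in 11 enzymes that were lower and in the 2 that were higher, Cyp51 and Ggps1 (0.94 and 0.38). Being past it was common: the quartiles were -0.29 and 0.30 over all measured genes, and -0.26 and 0.22 over the 7388 bright genes. The mevalonate arm had a median of -0.36 (6 of 7 lower) and the squalene to cholesterol arm of -0.27 (9 of 10 lower). Sqle was 1.47-fold lower, Mvd 1.35-fold, Fdps 1.28-fold and Dhcr7 1.26-fold, and Pmvk and Mvk had log2 differences of -0.38 and -0.33.

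The fatty acid branch had a median of -0.02, with 4 of 6 genes lower, which turned to 0.01 and 3 of 6 after centring each array. It was -0.28 with the mean of all probe sets, those under the floor included (5 of 6 lower), and -0.32 with the second probe set (4 of 6 lower). The sterol median in these settings was -0.30 and -0.36. Scd1 (-0.59) and Elovl6 (-0.27) were past the yardstick, while Fasn (0.13), Acaca (0.08), Acly (-0.00) and Scd2 (-0.03) were within it. Srebf1 was lower by 0.28, and Srebf2 (0.07), Insig1 (-0.01) and Stard4 (-0.00) were within the yardstick on their brightest probe sets. For Stard4 the second probe set gave 0.31, past the yardstick, and the third 0.10. The pluripotency markers were lower beside the sterol enzymes, with a median of -1.19 and 4 of 8 at least 2-fold lower, against 4.94% of all genes. The 8 endothelial and hemangioblast markers were all higher. Among them is Kdr, which encodes the sorted protein, so its direction was set by the sort. Pecam1, Kdr, Flt1 and Cdh5 were under the floor in Snail-induced Flk1- cells, so for these genes the fold is only a bound set by the floor. That bound was 1.75 for Pecam1, 15.8 for Kdr, 7.30 for Cdh5 and 21.7 for Flt1. Thus 2-fold was not settled for Pecam1, and the other 7 markers were past it.

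The comparison of Snail-induced Flk1+ with untreated Flk1- cells joins induction and the sort, and it shares an array with each of the other comparisons. On the brightest probe sets the lowest genes were again in the sterol branch: Idi1 was 1.92-fold lower, Sqle 1.75-fold and Lss 1.53-fold. These 3 were the genes at least 1.5-fold lower, against 14.2% of all genes, and Ggps1, at 1.64-fold, was the 1 gene at least 1.5-fold higher, against 16.9%, though 2 of its 4 probe sets were lower, down to -0.31. At 2-fold, 0 were higher and 0 lower, against 8.24% and 6.47% of all genes; after quantile normalisation or centring each array, Idi1 was just past 2-fold lower (-1.01 under both).

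Of 17 sterol enzymes 12 were lower, where 48.6% of all genes were. Their median log2 difference was -0.26 against 0.01 for all genes. Fdft1, Fdps, Pmvk, Mvd and Ebp were lower by 0.50, 0.43, 0.42, 0.41 and 0.37. Hsd17b7 was higher by 0.44, while Hmgcs1 (0.11), Nsdhl (0.13), Cyp51 (0.05) and Dhcr7 (-0.05) lay within the yardstick of 0.25. The fatty acid branch had a median of -0.03, from -0.32 for Scd1 to 0.29 for Scd2. The second probe set of Scd1 was lower, at -1.01, just past 2-fold. Insig1 was higher by 0.42 and Srebf2 by 0.34, Stard4 stood at 0.24 and Srebf1 at -0.06.

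The other probe sets of these genes bear on how far each reading can be trusted. Of 65 probe sets 59 were above the floor, and 18 of the 27 genes had at least 2 such probe sets. All probe sets of a gene had the same sign in 12 of the 18 genes for Snail-induced against untreated Flk1- cells, in 8 for Flk1+ against Flk1- cells of the induced cultures, and in 11 for Flk1+ against untreated Flk1- cells. Hmgcs1, Cyp51, Ggps1, Sc5d and Acaca were among the genes whose probe sets disagreed. For Hmgcs1, 3 of 5 probe sets were lower in Flk1+ than in Snail-induced Flk1- cells, the brightest by 0.26. The probe sets next in brightness gave 0.00 and 0.07 and so did not share the lower Flk1+ value. The dimmer ones gave -0.32 and -0.44.

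For Cyp51, the second probe set read 1010.4 in Snail-induced Flk1+, 987 in Snail-induced Flk1- and 806 in untreated Flk1- cells, and so did not share the low Snail-induced Flk1- array. Its log2 difference for Snail-induced against untreated Flk1- cells was 0.29, against -0.89 on the brightest probe set. For Ggps1, 2 of 4 probe sets were higher and 2 lower in Flk1+ than in Snail-induced Flk1- cells, from -0.33 to 0.38. For Sc5d, another probe set gave 0.40 where the brightest gave -0.60, and for Acaca the other gave -0.82 where the brightest gave 0.08.

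Idi1, Lss, Fdft1, Mvk, Mvd, Scd1, Elovl6 and Scd2 were lower in Flk1+ than in Snail-induced Flk1- cells on all of their probe sets above the floor. Idi1 ranged from -0.77 to -0.38 over 2 probe sets, Lss from -0.62 to -0.49 over 3 and Fdft1 from -0.60 to -0.53 over 2. Scd1 ranged from -0.95 to -0.59, and its second probe set read 434 in Snail-induced Flk1+, 849 in Snail-induced Flk1- and 883 in untreated Flk1- cells. Sqle had 1 probe set. Over all probe sets of the sterol enzymes, 29 of 38 were lower in Flk1+ than in Snail-induced Flk1- cells, with a median of -0.33. Leaving out the brightest of each gene, 14 of 21 were lower, with a median of -0.32. Of the fatty acid probe sets, 11 of 14 were lower (median -0.21), and beyond the brightest 7 of 8 (median -0.37). Such counts were not made over the probe sets of all genes. Against untreated cells the sterol probe sets beyond the brightest were evenly spread, 10 lower and 11 higher, with a median of 0.13 where the brightest gave -0.26.

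**Figure D3:**
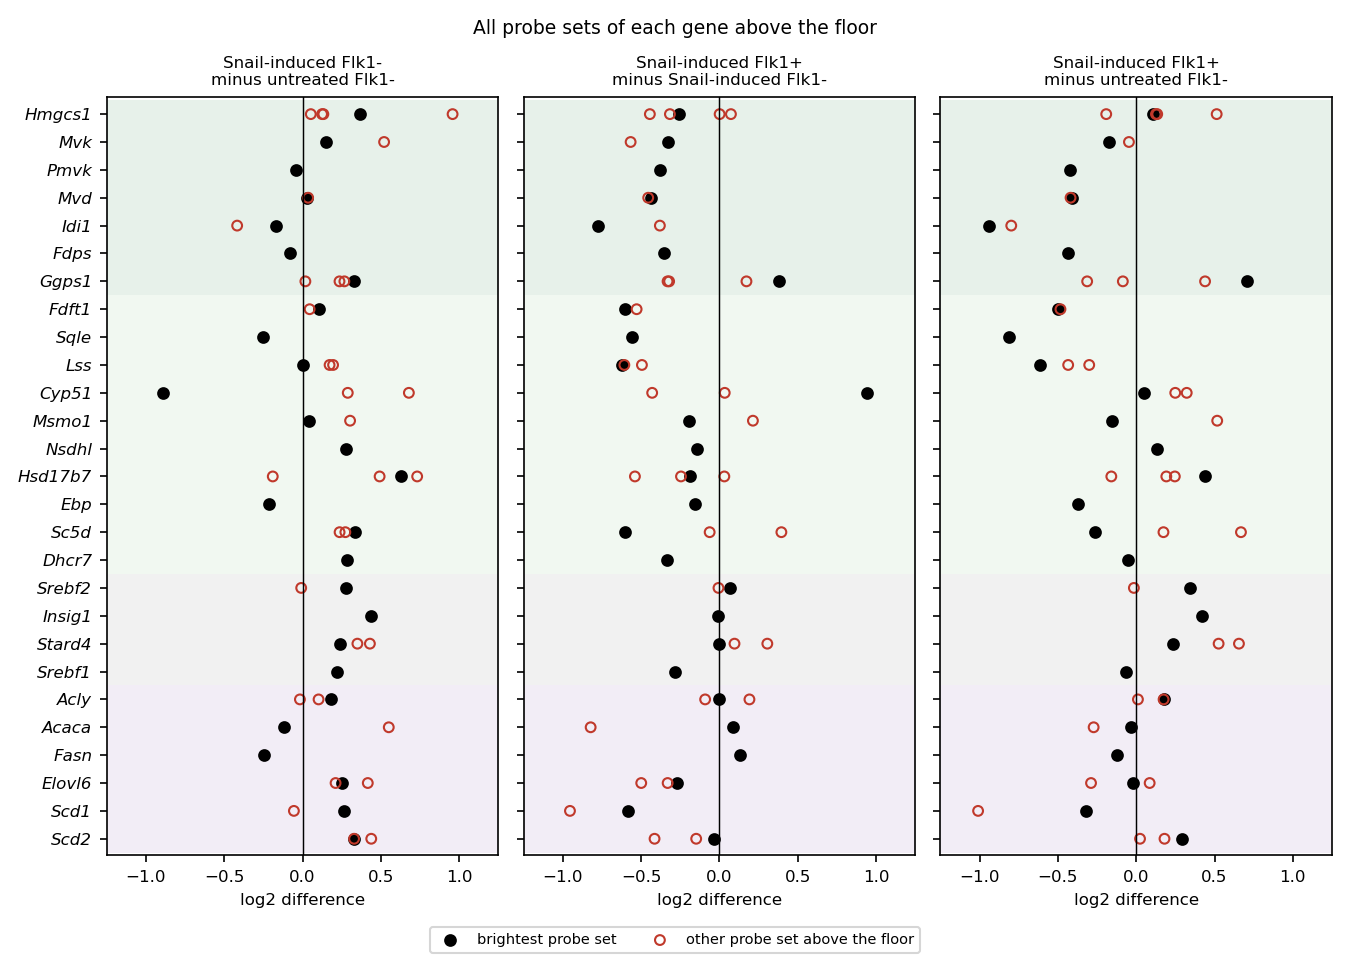
Log2 differences of all 59 probe sets above the floor, by gene, in the 3 comparisons; black points are the brightest probe set of each gene, red circles the others, and shaded bands the 4 gene groups. Lss, Fdft1, Mvd and Idi1 have all points left of 0 in the middle panel, while the points of Cyp51 in the first panel reach from -0.89 to 0.68.

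Genes around these branches were read from lists of the wider pathway. Of 15 other genes of sterol synthesis and SREBP control, 11 were measured and the others were not analysed here. In Flk1+ against untreated Flk1- cells 0 of them reached 2-fold upward and 1 downward (median 0.07), against 8.24% and 6.47% of all genes. Tm7sf2, a sterol C14 reductase, read 282 in Snail-induced Flk1+, 507 in Snail-induced Flk1- and 842 in untreated Flk1- cells, 2.92-fold lower in Flk1+ than in untreated cells. Lbr, the other C14 reductase, read 4357, 4135 and 4642. Scap, the escort of the SREBPs, read 1707, 1349 and 935, Erlin2 read 505.5, 415 and 309, and Insig2 read 248, 317 and 385. Scap was thus highest in Flk1+ cells, where most sterol enzymes were lowest.

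Sterol uptake, efflux and storage held larger differences in both directions. In Flk1+ against untreated Flk1- cells, 3 of 13 measured genes reached 2-fold upward and 2 downward (median 0.18), where 8.24% and 6.47% of all genes did. Abca1, the cholesterol exporter, read 260 in Snail-induced Flk1+, 103 in Snail-induced Flk1- and 54.7 in untreated Flk1- cells (4.19-fold higher in Flk1+ than in untreated), though 1 of its 2 probe sets did not share the direction between the Snail-induced arrays. Mylip, a ubiquitin ligase that limits sterol uptake, read 319, 128 and 69.2 (4.18-fold higher), and Lipa, the lysosomal acid lipase, read 537, 314 and 194 (2.69-fold higher). Abcg1, another sterol exporter, ran the other way, at 11.7, 81.7 and 149, and was at least 5.83-fold lower in Flk1+ than in untreated cells, a bound set by the floor. Of its 2 probe sets, 1 did not share the direction between the Snail-induced arrays. Apoe, the apolipoprotein, read 1514, 2392 and 3443. Abca1, Mylip, Lipa, Abcg1 and Apoe each had the Snail-induced Flk1- array between the others.

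Of 13 measured genes of fatty acid uptake and oxidation, 8 were lower in Flk1+ than in untreated Flk1- cells, where 48.6% of all genes were, and 3 at least 2-fold so, against 6.47%. Their median was -0.59. Fabp3, a fatty acid binding protein, read 154 in Snail-induced Flk1+, 579 in Snail-induced Flk1- and 792 in untreated Flk1- cells (4.90-fold lower than in untreated), and 1 of its 2 probe sets did not share the direction between the Snail-induced arrays. Cpt1a, which admits fatty acids to mitochondria, read 80.1, 186 and 208, and Lpl, lipoprotein lipase, read 193, 462 and 488. Ppara was above the floor in Flk1+ cells alone (36.5, against 15.7 and 19.3).

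Other lipid synthesis genes had a median of -0.12 over 22 genes, and in Flk1+ against untreated Flk1- cells 0 reached 2-fold upward and 3 downward, against 8.24% and 6.47% of all genes. Acss2, which makes acetyl-CoA from acetate, read 129 in Snail-induced Flk1+, 213 in Snail-induced Flk1- and 342 in untreated Flk1- cells, Acacb, the mitochondrial carboxylase, read 60.9, 140.1 and 134, and Acsl5, an acyl-CoA synthetase, read 371, 485 and 756. Lpin1, a phosphatidate phosphatase, read 849, 552 and 459 and was higher. In the list of isoprenoid use, 0 of 11 genes were 2-fold apart (median -0.09) in the same comparison, against the same shares of all genes. Icmt, which methylates prenylated proteins, read 374, 222 and 225, and Pggt1b, a subunit of geranylgeranyl transferase, read 453, 299 and 296, both higher in Flk1+ cells, while Fnta, a farnesyl transferase subunit, read 2801, 3814 and 3968, and Rabggtb read 1629, 2189 and 2372.

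**Figure D4:**
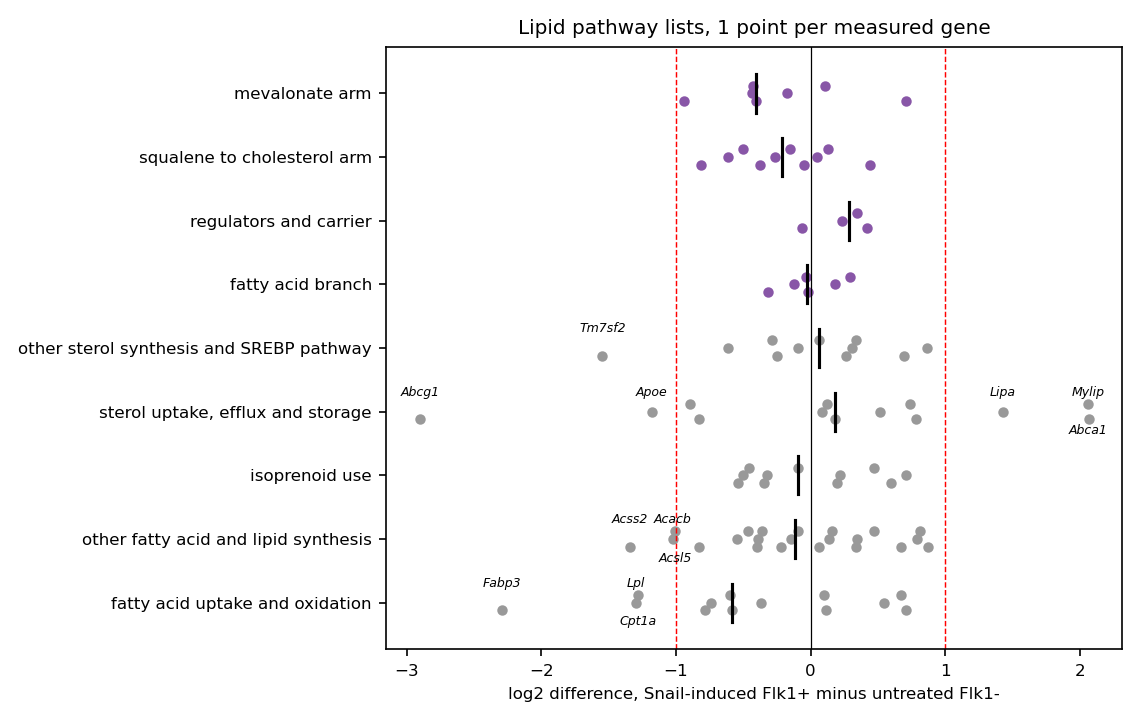
Log2 difference of Snail-induced Flk1+ minus untreated Flk1- cells for each measured gene of the 9 lipid lists, purple for the 27 genes of synthesis described first and grey for the wider lists; black bars are list medians, dashed red lines 2-fold, and genes past 2-fold are named. The purple points all lie within the red lines, and the points past them are in the wider lists, up to Abca1 (2.07); Abcg1, under the floor in Flk1+ cells, is drawn at its deposited value and is only a bound.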

How the data were processed

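Total RNA of 3 sorted populations was turned into biotinylated cRNA from 2 ug by the standard Affymetrix procedure, per the labels' protocols. The values the authors deposited are 1 linear intensity per probe set and array, 45037 in all; for the summary method, scaling and software the sources used here give nothing. Column medians were 44.6 (Snail-induced Flk1+), 42.4 (Snail-induced Flk1-) and 42.7 (untreated Flk1-), so columns were used as deposited. Gene names come from the platform annotation and were brought up to date through Entrez IDs (RefSeq, GRCm38.p6): 34945 had 1 symbol (204 of them unmatched there), 932 several and 9160 none, and only the first kind was used. Each gene took its probe set with the highest mean. Log2 (value + 9.53) was used; the offset understates differences of dim genes. With 1 array per group there is no test. A fold is 2 raised to the log2 difference; against a value under the floor, the bound is the brighter value over the floor. All 27 measured genes of the list are named; of each wider list, up to 4 measured genes with the largest absolute difference over the 3 comparisons are named; 1 more gene in that rule was not analysed here. Lbr and Apoe fall outside this rule and were chosen after their values were seen. The genes, lists and alternatives were chosen with earlier results of these data known. The counting step was tested on simulated data. Python 3.11.15, numpy 2.4.6 and pandas 2.3.3 were used.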

Additional observations from a re-analysis of the deposited data

How the results depend on the processing

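Alternatives were quantile normalisation, centring each array, the mean of all probe sets, dropping probe sets whose suffix marks cross-hybridisation or shared transcripts, no floor, a higher floor (60th percentile), no offset, an offset at the 40th percentile, values under the floor set to it, the mean over a branch in place of the median, a size of 1.5-fold, and, chosen after seeing the data, the second probe set of each gene. The mean of all probe sets took in those under the floor. For Snail-induced against untreated Flk1- cells the sterol median ranged from -0.06 to 0.16 and the fatty acid median from 0.10 to 0.25. The sterol median of Flk1+ against Flk1- cells of the induced cultures stayed between -0.39 and -0.27, and that of Flk1+ against untreated Flk1- cells between -0.38 and -0.11. The fatty acid median of Flk1+ against Flk1- induced cells moved to -0.28 with the mean of all probe sets and to -0.32 with the second probe set. In Flk1+ against untreated Flk1- cells, 1 gene was at least 2-fold lower (0 as reported) with quantile normalisation, with centring (Idi1 in both) and with the second probe set (Scd1). At 1.5-fold the counts were 1 higher and 1 lower for Snail-induced against untreated Flk1- cells, 1 and 5 for Flk1+ against Flk1- induced cells, and 1 and 3 for Flk1+ against untreated Flk1- cells. Of 81 differences of single genes, 3 changed sign with quantile normalisation, 7 with centring, 9 with the mean of all probe sets and 16 with the second probe set. No paired analysis was possible because each group has 1 array, and no replicate could be left out. Depth does not apply to arrays; all 27 genes lay over the floor, so the number of arrays is the limit.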
